A study of Homo sapiens with 27 samples.

Results

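The comparison described here sets CARM1 hairpin 2 against CARM1 hairpin 1 in SKNO1, a human acute myeloid leukaemia cell line that carries the RUNX1-RUNX1T1 fusion. Both arms are knockdowns of the same gene, so every difference below lies between a deeper and a shallower knockdown and not between knockdown and control. The members are all genes of the deposited table in the 3 hairpin 2 libraries and the 3 hairpin 1 libraries, 6 of the 27 libraries of the series, and 18430 of 57992 genes had enough counts to be tested. The 3 SKNO1 libraries with a scramble hairpin, which targets no gene, entered the same fit and serve here as the reference level. All 9 SKNO1 libraries carried a constitutive lentiviral hairpin, were grown with 10 ng/mL GM-CSF, a growth factor that this line depends on, and were sequenced as total RNA 3 days after knockdown. The same hairpins were used in MV411 and MOLM13, AML lines with a KMT2A rearrangement, again with 3 libraries per group and with no GM-CSF supplement given in the labels. The labels do not say whether the replicates were separate cultures or infections, so the p-values measure the spread between these samples only. Each arm rests on 1 hairpin sequence, and effects of a hairpin on other transcripts cannot be told apart from the depth of the knockdown.

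CARM1, also called PRMT4, is a protein arginine methyltransferase. It places asymmetric dimethyl marks on arginines of histone H3 and of many coactivators, splicing factors and chromatin remodelling subunits, and it works with the p160 coactivators and p300 at promoters and enhancers. In blood cells it methylates RUNX1 and is known to restrain myeloid differentiation.

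CARM1 itself (ENSG00000142453, GRCh38 chromosome 19, 10871513 to 10923070, plus strand) was at 3.38, 3.24 and 3.51 CPM (counts scaled to the size of each library) in the hairpin 2 libraries and at 10.0, 7.02 and 10.6 CPM in the hairpin 1 libraries. The scramble libraries were at 19.6, 21.6 and 24.4 CPM. The 3 groups did not overlap, and hairpin 1 lay between scramble and hairpin 2. Relative to the scramble mean, 15.4% ± 0.608 of CARM1 RNA was left with hairpin 2 and 42.1% ± 8.81 with hairpin 1 (SD, n = 3 libraries each). The log2 fold change of hairpin 2 over hairpin 1 was -1.45 ± 0.20 (SE; adjusted p = 0.000957). An exact permutation test of the 6 values, two-sided, gave p = 0.1, the smallest that 20 splits of 3 against 3 allow.

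The libraries held 34396572 to 37398427 expected counts with hairpin 2, 32392863 to 40389063 with hairpin 1 and 35452693 to 36330780 with scramble. Structured RNAs (RN7SL1, RN7SL2, RN7SK, RPPH1 and RMRP) made up 25.2% ± 3.04 of the counts in hairpin 2 libraries, 24.6% ± 0.839 in hairpin 1 libraries and 18.6% ± 1.15 in scramble libraries (SD over 3 libraries). Principal component 1 of the 9 libraries (30.4% of variance) placed the hairpin 2 libraries at 41.2 to 51.2, apart from both hairpin 1 (-23.2 to -18.2) and scramble (-36.3 to -19.7). Scramble replicates 1 and 3 were the most alike pair within a SKNO1 group, at a chi-square of 7.75 per gene against 40.1 to 107 for the others. Markers of the line were present, with 2345 to 4787 counts of RUNX1T1, 6101 to 13928 of KIT and 66731 to 184190 of the granule peroxidase gene MPO in the 9 libraries, while the stem cell antigen CD34 had 0 to 2. The monocyte genes CD14, FCN1, S100A8 and S100A9 had at most 4 counts in any library, and PF4, GP9, MS4A1 and COL1A1 had 0, which allows up to 3 counts per library. Other members of the same marker lists were detected. The megakaryocyte gene ITGA2B had 917 to 2886 counts and the monocyte gene CSF1R 41 to 176. The lymphoid genes CD79A and NKG7 had 30 to 59 and 2 to 33, and the fibroblast gene PDGFRB 13 to 48.

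Of the 18430 genes tested, 833 (4.52%) were higher and 921 (5%) were lower with hairpin 2 at an adjusted p below 0.05, together 9.52%. These shares are the background for each count of list members that follows. The lists were chosen with earlier results of these data known, so a count beside its background is a description and not a test. Protein-coding genes made up 701 of the higher and 873 of the lower genes, against 13013 of all genes tested. The change was over 2-fold in 493 of the higher genes (median log2 fold change 1.11) and in 349 of the lower genes (median -0.91), while the median of all genes tested was 0.0056. All 3 hairpin 2 libraries lay above all 3 hairpin 1 libraries for 13.9% of the genes tested and below them for 14.1%. The groups were apart for 831 of the 833 higher and 917 of the 921 lower genes. The calls come from these same libraries, so that separation adds no further support to them. The scramble mean lay nearer to hairpin 1 than to hairpin 2 for 594 higher genes (71.3%) and 678 lower genes (73.6%), against 57.3% of all genes tested. It lay between the 2 hairpin means for 611 higher genes (73.3%) and 688 lower genes (74.7%), against 35.5% of all genes tested. In those genes the hairpin means lay on opposite sides of scramble, unlike CARM1, where hairpin 1 lay between scramble and hairpin 2. The called genes were picked for a gap between the hairpins, so these shares are not a test. The counts of called genes leaned on single libraries. They were 332 higher and 269 lower without hairpin 2 replicate 2, 500 and 445 without hairpin 2 replicate 1, 455 and 377 without hairpin 2 replicate 3, and 505 and 458 without hairpin 1 replicate 3. The scramble libraries lie outside the contrast but enter the estimate of the spread behind each p-value. Without replicates 1 and 3, the alike scramble pair, left out in turn, the counts were 525 and 774, and 557 and 816. Without scramble replicate 2 they were 1030 and 1148.

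**Figure D1:**
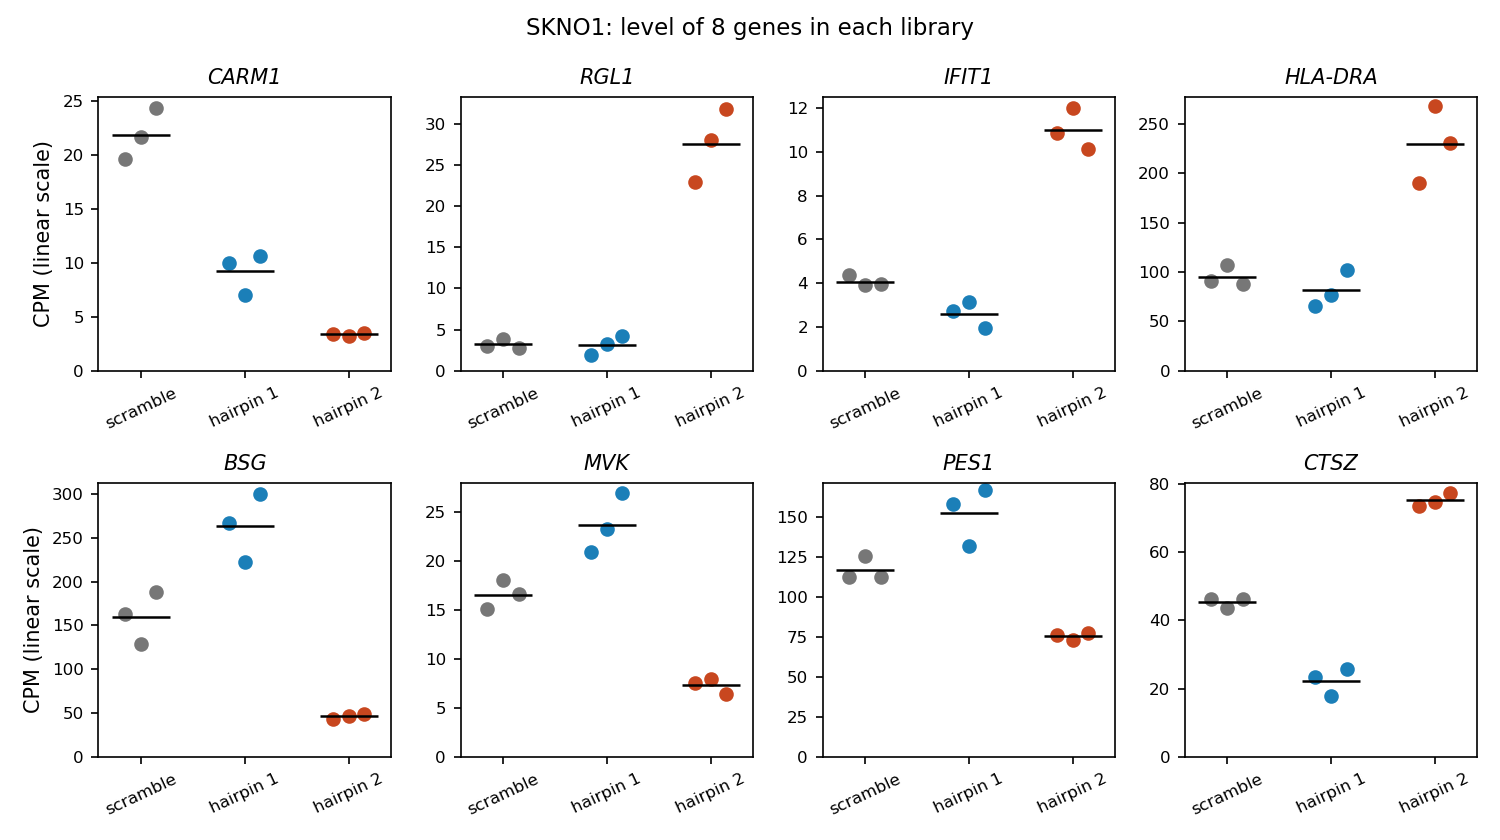
Level of 8 genes in each of the 9 SKNO1 libraries, in CPM on a linear axis that starts at 0, with 1 point per library and a bar at the group mean. RGL1, IFIT1, HLA-DRA and CTSZ were higher and BSG, MVK, PES1 and CARM1 lower in the 3 hairpin 2 libraries than in the other 6.

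RGL1, ENPP2 and BMP6 were among the largest rises of well-measured protein-coding genes. RGL1, a guanine nucleotide exchange factor for Ral GTPases (ENSG00000143344, chromosome 1, 183636085 to 183928531, plus strand), was at 22.9, 28.1 and 31.8 CPM with hairpin 2, at 1.89, 3.21 and 4.20 with hairpin 1 and at 3.06, 3.80 and 2.71 with scramble. The hairpin 2 libraries stood alone, since hairpin 1 and scramble overlapped. Its log2 fold change was 3.15 ± 0.27 (SE; adjusted p = 6.85e-05). ENPP2, which encodes autotaxin, the secreted enzyme that makes lysophosphatidic acid, was at 47.0, 71.2 and 55.7 CPM with hairpin 2 against 5.08, 10.4 and 7.45 with hairpin 1 and 10.94, 11.96 and 10.2 with scramble (2.92 ± 0.26; adjusted p = 7.74e-05). BMP6, a secreted bone morphogenetic protein, was at 16.3, 18.5 and 16.6 CPM with hairpin 2 against 1.89, 3.42 and 3.73 with hairpin 1 and 2.76, 3.50 and 3.45 with scramble (2.503 ± 0.244; adjusted p = 0.000139). In these genes the scramble libraries sat with hairpin 1 or within 2 CPM above its highest library.

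Other genes with large rises included 4 that encode receptors. P2RY14, the receptor for UDP-glucose, rose by 2.58 ± 0.44 (SE; adjusted p = 0.00357), the interleukin 1 receptor IL1R1 by 2.48 ± 0.46 (0.0052) and the adenosine receptor ADORA3 by 2.29 ± 0.22 (0.000119). KDR, the VEGF receptor of endothelial cells, was at 15.6, 19.8 and 23.2 CPM with hairpin 2 against 2.43, 3.58 and 5.13 with hairpin 1 (2.40 ± 0.26; adjusted p = 0.000249). A second endothelial receptor gene, TEK, was at 1.86, 3.41 and 3.45 CPM with hairpin 2 and at 0.0261 to 0.117 with hairpin 1. Of 7 tested epithelial, fibroblast and endothelial genes, KDR, TEK and the adhesion gene PECAM1 (1.22 ± 0.24; 0.00788) rose and 0 fell. PECAM1 is also on the leukocyte adhesion list. Its scramble libraries, at 6.75 to 11.4 CPM, overlapped with hairpin 2 (9.96 to 13.5) and lay above hairpin 1 (3.89 to 5.76). The fibroblast marker PDGFRB, at 13 to 48 counts in the 9 libraries, did not pass (-0.66 ± 0.41; 0.349), and the part of other cell types in these values was not tested. ITGA9, an integrin alpha subunit, was at 77.6, 102 and 86.6 CPM against 9.85, 24.7 and 26.4, and scramble was at 17.8 to 27.9 (2.13 ± 0.32; adjusted p = 0.00178). The semaphorin SEMA6B rose by 2.5 ± 0.27 (0.000262) and the matrix collagen COL14A1 by 2.67 ± 0.20 (3.83e-05). The GTPase regulators SIPA1L2 and IPCEF1 rose by 2.46 ± 0.26 (0.000224) and 2.25 ± 0.20 (8.21e-05). None of these calls was lost when a library was left out or the processing changed.

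ABCA1, the cholesterol exporter that LXR receptors switch on, was the one member of the lipid list that rose. It was at 31.3, 45.8 and 39.5 CPM with hairpin 2, 8.44, 7.67 and 7.19 with hairpin 1 and 21.5, 11.7 and 21.5 with scramble. Here scramble lay between the hairpins, without overlap with either. The log2 fold change was 2.32 ± 0.25 (SE; adjusted p = 0.000224).

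Type I interferon genes were higher with hairpin 2. These genes are switched on when interferon receptors activate a transcription factor complex that contains IRF9 and binds the interferon-stimulated response element, and their products sense or degrade viral RNA. Of 39 tested members, 19 rose and 0 fell, with a median log2 fold change of 0.86, and 37 of the 39 were above 0. Summed over the list, the level was 1030 to 1160 CPM with hairpin 2, 593 to 745 with hairpin 1 and 710 to 734 with scramble, so the hairpin 2 libraries did not overlap with either group. IFIT1 and OAS3, both of which rose, are shown by the stretch before their start sites, since the element named above is where that complex binds. The sequences come from RefSeq (GRCh38.p14), run 5′ to 3′ on the plus strand at chr10:89392373-89392545 and chr12:112938224-112938351, and end at the first base that GENCODE 29 places in an exon. Capitals mark matches to the core of that element, GAAA, any 2 bases and GAAA again, on either strand.
IFIT1: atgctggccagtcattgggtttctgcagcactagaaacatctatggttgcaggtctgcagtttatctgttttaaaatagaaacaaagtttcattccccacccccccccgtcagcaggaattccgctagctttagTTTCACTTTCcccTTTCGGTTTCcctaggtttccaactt
OAS3: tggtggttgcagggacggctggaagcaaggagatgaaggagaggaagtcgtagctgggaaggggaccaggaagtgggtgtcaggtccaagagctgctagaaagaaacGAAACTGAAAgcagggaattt

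IFIT1, whose protein binds foreign RNA caps, carries 2 matches there, and OAS3, whose product makes the messenger that activates RNase L, carries 1 in the stretch shown. Among interferon genes with a promoter entry, the 250 bases before the start held the core in 9 of 13 that rose (69.2%) and in 10 of 16 that did not pass (62.5%). It was present in 38 of 564 of all higher genes with an entry (6.74%), in 368 of 10496 tested genes (3.51%) and in 3.02% of all 35116 promoters of that length. A match is a description of these letters only.

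IFIT1 was at 10.86, 12.02 and 10.14 CPM with hairpin 2, at 2.75, 3.13 and 1.94 with hairpin 1 and at 4.36, 3.91 and 3.94 with scramble. All 3 groups were separate, with scramble between the hairpins and nearer to hairpin 1. Its log2 fold change was 2.08 ± 0.21 (SE; adjusted p = 0.000195). OAS3 was at 4.02, 4.93 and 5.62 CPM with hairpin 2 against 0.799, 0.653 and 0.704 with hairpin 1 and 1.07, 1.46 and 1.11 with scramble (2.75 ± 0.25; adjusted p = 9.48e-05). IFIT2, a relative of IFIT1 that is also induced by viral RNA, rose by 2.17 ± 0.25 (0.000322) and OASL, a relative of the OAS enzymes, by 2.09 ± 0.25 (0.000503). The count of 19 stayed between 14 and 25 whichever library was left out.

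HLA class II genes, which present peptides to helper T cells, were also higher. Of 11 tested members, 8 rose and 0 fell, and the median log2 fold change was 1.26. HLA-DRA (chromosome 6, 32439842 to 32445046, plus strand), the alpha chain of the DR molecule, was at 189.8, 267.5 and 230.8 CPM with hairpin 2, at 65.6, 76.7 and 102 with hairpin 1 and at 90.4, 107 and 87.7 with scramble. Hairpin 1 and scramble overlapped below the hairpin 2 libraries. On the log2 scale, hairpin 2 minus hairpin 1 was 1.49 ± 0.20 (SE; adjusted p = 0.000913). HLA-DPB1 rose by 1.94 ± 0.26 (0.000777), the peptide exchange factor subunit HLA-DMA by 1.55 ± 0.23 (0.00178) and HLA-DRB1 by 1.26 ± 0.21 (0.00289). Reads of DRB genes can be split between close relatives, so the value of HLA-DRB1 is uncertain. Of 16 HLA class I and peptide loading genes, the loading chaperone TAPBP alone rose (0.83), and its call was lost without any 1 of 7 of the 9 libraries (largest adjusted p 0.128).

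Some genes of mature myeloid cells were higher. Of 36 tested members of 51 listed, 11 rose and 0 fell, with a median of 0.57, and 6 rose without hairpin 2 replicate 2. The list summed to 834 to 935 CPM with hairpin 2, 675 to 922 with hairpin 1 and 573 to 795 with scramble, so hairpin 2 and hairpin 1 overlapped on the sum. TLR4, the endotoxin receptor, was at 28.95, 28.75 and 29.89 CPM with hairpin 2, at 13.3, 11.8 and 8.36 with hairpin 1 and at 25.74, 19.2 and 22.97 with scramble. Scramble lay between the hairpins and nearer to hairpin 2. The log2 fold change was 1.39 ± 0.20 (SE; adjusted p = 0.00117). The complement gene C3 was at 2.53, 3.09 and 2.52 CPM against 0.831, 0.339 and 0.411 (2.38 ± 0.37; adjusted p = 0.00225). NCF1, a subunit of the phagocyte oxidase with near-identical pseudogenes that make its count uncertain, rose by 1.42 ± 0.24 (0.0031). CSF1R, the receptor of macrophage growth factor, did not pass (0.81 ± 0.31; adjusted p = 0.119), but did without hairpin 1 replicate 1 (0.023) and with a replicate block (0.0359), and CD14 had at most 1 count.

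Among eosinophil, basophil and mast cell genes, 6 of 16 tested rose and 1 fell. Those that rose encode the mast cell protease CPA3, the IgE receptor subunit FCER1A, the IL33 receptor IL1RL1, the lectin SIGLEC6, the IL5 receptor IL5RA and the prostaglandin D synthase HPGDS. The one that fell was KIT, which is described with the leukaemia genes. CPA3 was at 47.2, 54.1 and 50.8 CPM with hairpin 2, at 16.7, 19.7 and 9.48 with hairpin 1 and at 22.0, 18.5 and 21.7 with scramble. Only the hairpin 2 libraries stood apart. Its log2 fold change was 1.73 ± 0.24 (SE; adjusted p = 0.000927), and FCER1A rose by 2.31 ± 0.29 (0.000673). The granule genes EPX (-0.97 ± 0.65; adjusted p = 0.394), PRG2 (-0.57 ± 0.38; 0.389) and CLC (0.01 ± 0.36; 0.993) did not pass, although EPX did with no filter on low counts (0.0467). The list's sum overlapped between the hairpins, at 535 to 664 CPM with hairpin 2 and 536 to 553 with hairpin 1. In these bulk samples, fewer cells of a type and less RNA per cell cannot be told apart.

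NF-kB targets and chemokines, lysosome genes and adhesion genes each had a few members that rose and none that fell. Of 27 NF-kB genes, 6 rose (median 0.40), and 3 rose without hairpin 2 replicate 1. The neutrophil chemokine gene CXCL8 was at 19.9, 17.3 and 21.8 CPM with hairpin 2 against 5.02, 6.34 and 9.27 with hairpin 1 and 8.58 to 8.65 with scramble (1.52 ± 0.22, SE; adjusted p = 0.00136). The NF-kB cofactor NFKBIZ rose by 0.93 ± 0.18 (0.00788) and the prostaglandin synthase PTGS2 by 1.59 ± 0.28 (0.00429). Of 43 lysosome and autophagy genes, 4 rose, against 4.52% of all genes tested, and 7 rose without hairpin 1 replicate 1 or by DESeq2. The lysosomal protease gene CTSZ was at 73.6, 74.6 and 77.3 CPM with hairpin 2, at 23.4, 17.8 and 25.7 with hairpin 1 and at 43.8 to 46.4 with scramble, so the 3 groups were separate (1.75 ± 0.17; adjusted p = 0.000139). The autophagy genes WIPI1 and GABARAPL1 rose by 1.49 ± 0.22 (0.00147) and 1.35 ± 0.20 (0.00143). Of 33 adhesion and motility genes, 6 rose, among them the sphingosine phosphate receptor S1PR1 (2.40 ± 0.34; 0.00134).

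Immediate early genes moved in both directions. These are the first genes transcribed after a stimulus. Of 28 tested, 4 rose and 2 fell (median 0.34), and 1 rose without hairpin 2 replicate 2, while 1 fell without hairpin 1 replicate 3 or any 1 hairpin 2 library. IER3, a survival gene, was at 3.99, 4.84 and 4.61 CPM with hairpin 2 against 1.44, 2.04 and 1.82 with hairpin 1 and 1.85 to 2.07 with scramble (1.34 ± 0.22, SE; adjusted p = 0.00274). The AP-1 subunit JUN was at 12.8, 21.9 and 22.7 CPM against 8.19, 7.52 and 8.51 (1.25 ± 0.26; adjusted p = 0.00961), and its call was lost without hairpin 2 replicate 2 (0.0585). FOSL1, another AP-1 subunit, fell by 1.25 ± 0.24 (0.00718).

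Brakes of the cell cycle and p53 targets included genes that rose. Of 24 p53 targets, 4 rose and 1 fell, and 2 rose without hairpin 2 replicate 2 or replicate 3. The one that fell, the nuclease gene AEN (-1.14 ± 0.27; adjusted p = 0.0214), lost its call without any 1 of hairpin 1 replicate 3 and hairpin 2 replicates 1 and 2 (largest adjusted p 0.135). TP53INP1, a stress gene of the p53 pathway, was at 113, 140.3 and 107 CPM with hairpin 2 against 35.7, 49.3 and 37.8 with hairpin 1 and 36.4 to 53.8 with scramble (1.56 ± 0.20, SE; adjusted p = 0.000746). ZMAT3, an RNA-binding p53 target, rose by 1.77 ± 0.24 (0.000867), with scramble at 41.11 to 53.04 CPM between hairpin 1 (17.6 to 27.4) and hairpin 2 (52.5 to 88.6) and overlapping with the latter. CDKN1A, the p21 inhibitor, was at 10.3, 13.5 and 15.2 CPM against 3.42, 5.46 and 6.98 (1.29 ± 0.30; adjusted p = 0.0195), a call lost without hairpin 2 replicate 2 (0.0782) or replicate 3. Of 28 G1 cyclins, CDKs and inhibitors, 5 rose and 2 fell, and the number that rose was 0 without hairpin 2 replicate 2 and 2 without hairpin 2 replicate 3 or hairpin 1 replicate 3. The 2 that fell were the kinases CDK4 (-1.16 ± 0.18; adjusted p = 0.00214) and CDK2 (-1.16 ± 0.18; 0.00232).

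**Figure D2:**
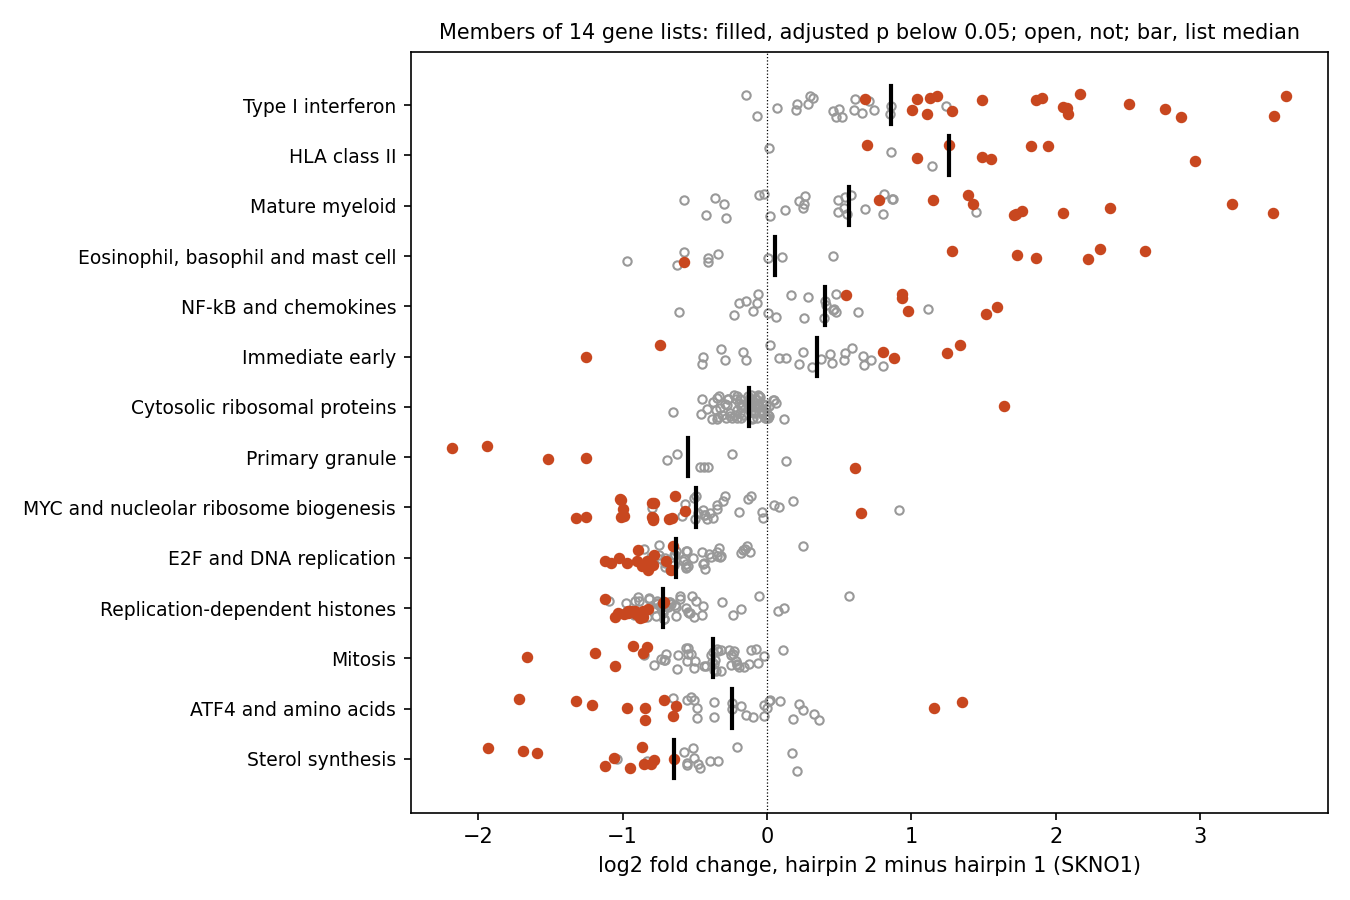
Log2 fold change of hairpin 2 over hairpin 1 in SKNO1 for every tested member of 14 gene lists, with filled points at an adjusted p below 0.05, open points otherwise and a bar at the list median. The interferon and HLA class II points lie mostly to the right of 0 (medians 0.86 and 1.26), and the sterol, replication, histone and ribosome biogenesis points mostly to the left.

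BSG, PPT1 and IGLL1 were among the largest falls of well-measured protein-coding genes. BSG, which encodes basigin, a surface glycoprotein that carries lactate transporters to the membrane (ENSG00000172270, chromosome 19, 571277 to 583493, plus strand), was at 43.0, 47.0 and 49.4 CPM with hairpin 2, at 266, 223 and 299.9 with hairpin 1 and at 163, 129 and 188 with scramble. The 3 groups were separate, and scramble lay between the hairpins. On the log2 scale, hairpin 2 minus hairpin 1 was -2.501 ± 0.19 (SE; adjusted p = 3.83e-05). PPT1, a lysosomal enzyme that removes palmitate from proteins, was at 40.0, 34.2 and 32.2 CPM with hairpin 2 against 127, 180.0 and 184 with hairpin 1 and 163, 186 and 155 with scramble (-2.21 ± 0.19; adjusted p = 6.85e-05). IGLL1, the surrogate light chain of early B cells, was at 17.7, 15.4 and 21.2 CPM against 86.1, 78.7 and 107, with scramble at 87.0 to 115 (-2.32 ± 0.20; adjusted p = 6.85e-05). For PPT1 and IGLL1, scramble overlapped with hairpin 1.

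KIAA0101, now named PCLAF, a partner of the replication clamp PCNA, fell by 2.38 ± 0.24 (SE; adjusted p = 0.000195). It was at 5.07, 4.44 and 4.46 CPM with hairpin 2, at 22.1, 22.8 and 27.7 with hairpin 1 and at 32.0, 57.8 and 32.8 with scramble, so hairpin 1 lay between the others. TERT, the catalytic subunit of telomerase, was at 2.01, 1.46 and 2.61 CPM against 6.59, 6.86 and 10.5 with hairpin 1 and 9.36 to 10.6 with scramble (-1.98 ± 0.26; adjusted p = 0.00072). BSCL2, which encodes seipin of the lipid droplet, fell by 2.07 ± 0.19 (8.21e-05), the nucleotide precursor enzyme PRPS2 by 1.94 ± 0.21 (0.000272) and the beta-oxidation enzyme ECH1 by 1.78 ± 0.18 (0.000193). The protein disulphide isomerase relative TXNDC12 fell by 1.79 ± 0.19 (0.000224), the neuropeptide gene GAL by 1.85 ± 0.24 (0.000673), DDN by 2.39 ± 0.19 (6.34e-05) and the leukocyte protease inhibitor CST7 by 2.18 ± 0.38 (0.00402).

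Cholesterol synthesis genes were lower with hairpin 2. The pathway runs from acetyl-CoA through mevalonate and squalene to cholesterol, and its genes are driven together by the SREBP2 factor, which acts with the CCAAT-binding factor NF-Y. Of 25 tested members, 11 fell and 0 rose, with a median log2 fold change of -0.64, and 23 of the 25 were below 0. The list summed to 1460 to 1630 CPM with hairpin 2, 2330 to 2700 with hairpin 1 and 2180 to 2780 with scramble, so scramble overlapped with hairpin 1 only. The number that fell was 5 without hairpin 2 replicate 2 or replicate 3 and 7 without hairpin 2 replicate 1. The stretches before the starts of MSMO1 and FDPS show the CCAAT boxes of 2 genes that fell. They are from RefSeq (GRCh38.p14), plus strand, chr4:165327419-165327622 and chr1:155308616-155308747, cut at the first exon base as above, with CCAAT in either orientation in capitals.
MSMO1: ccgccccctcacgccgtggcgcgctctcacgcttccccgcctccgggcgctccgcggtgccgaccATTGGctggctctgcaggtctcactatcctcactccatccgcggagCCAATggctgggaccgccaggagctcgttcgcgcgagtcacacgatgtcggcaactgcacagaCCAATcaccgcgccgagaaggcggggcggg
FDPS: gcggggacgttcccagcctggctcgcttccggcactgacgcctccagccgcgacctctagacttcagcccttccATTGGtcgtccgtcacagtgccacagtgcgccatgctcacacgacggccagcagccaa

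MSMO1, a sterol demethylase, has 3 such boxes in the stretch shown, and FDPS, which makes farnesyl diphosphate, has 1. Within 250 bases before the start, CCAAT on either strand was present in 9 of 9 sterol genes that fell and have an entry, in 7 of 10 that did not pass, in 41.7% of all lower genes, in 40.9% of tested genes and in 32% of all promoters of that length.

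MVK, the mevalonate kinase gene, was at 7.573, 7.996 and 6.43 CPM with hairpin 2, at 20.88, 23.23 and 26.96 with hairpin 1 and at 15.13, 18.02 and 16.59 with scramble. The 3 groups were separate, with scramble between the hairpins. The log2 fold change was -1.69 ± 0.18 (SE; adjusted p = 0.000213). MSMO1 was at 14.9, 24.1 and 13.4 CPM against 39.2, 109 and 51.0, with a spread among the hairpin 1 libraries that exceeded 2-fold (-1.93 ± 0.36; adjusted p = 0.00579). FDPS fell by 1.12 ± 0.17 (0.0018) and the sterol reductase TM7SF2 by 0.95 ± 0.17 (0.00512). ERG28, listed under its older symbol C14orf1 and a scaffold of sterol enzymes, fell by 1.87 ± 0.22 (0.000423). Of 18 fatty acid and LXR genes, 5 fell, led by the stearoyl-CoA desaturase SCD (338, 264 and 221 CPM against 585, 542 and 611; -1.08 ± 0.17; adjusted p = 0.00221). That count was 1 without hairpin 2 replicate 2, 2 without hairpin 2 replicate 3, and 3 without hairpin 2 replicate 1 or hairpin 1 replicate 3.

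Genes that make ribosomes fell in part. Of 44 tested members of the MYC and nucleolar list, 17 fell and 1 rose, with a median of -0.49. The one that rose was MXI1, a MAX partner that opposes MYC (0.65 ± 0.18; adjusted p = 0.0382), and its call was lost under 9 of 18 alternatives. The scramble libraries of MXI1, at 53.15 to 70.43 CPM, lay above hairpin 1 (35.62 to 45.06) and overlapped with hairpin 2 (56.48 to 72.47). Without hairpin 1 replicate 3, 7 fell, and without hairpin 2 replicates 1, 2 and 3 the counts were 8, 4 and 9. PES1, needed to process large subunit rRNA, was at 76.2, 73.0 and 77.3 CPM with hairpin 2, at 158, 132 and 167 with hairpin 1 and at 112, 126 and 113 with scramble. The groups were separate, with scramble between them. Its log2 fold change was -1.01 ± 0.15 (SE; adjusted p = 0.00181). Its complex partner BOP1 fell by 1.25 ± 0.22 (0.00434), the small nucleolar particle protein RRP9 by 1.32 ± 0.22 (0.00283) and POLR1A, the largest subunit of RNA polymerase I, by 1.00 ± 0.17 (0.00335). For BOP1, scramble (55.33 to 71.75 CPM) overlapped with hairpin 2 (35.94 to 58.31) and lay below hairpin 1 (89.3 to 139.4).

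Of the 82 cytosolic ribosomal proteins tested, 1 rose and 0 fell, and the list median was -0.12. Of 50 splicing factors, which include many CARM1 substrates, HNRNPA1 rose and SF3B3 fell, and both calls were lost under 6 or more of 18 alternatives.

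Other arginine methyltransferases included members that were lower and 1 that was higher with hairpin 2. Of 10 tested members of their list, 3 fell (CARM1 included) and 1 rose, and 5 fell with no filter on low counts. PRMT5, the main enzyme of symmetric dimethylation, was at 82.5, 77.8 and 78.3 CPM with hairpin 2, at 158, 128 and 147 with hairpin 1 and at 104, 120 and 101 with scramble. The groups were separate, and the log2 fold change was -0.86 ± 0.15 (SE; adjusted p = 0.00441). PRMT2 was at 75.4, 84.0 and 74.6 CPM against 45.9, 45.9 and 47.7, with scramble at 56.3 to 59.7 (0.75 ± 0.14; adjusted p = 0.00702). PRMT1, the main asymmetric enzyme, was lower by 0.57 ± 0.16 (0.0411) with hairpin 2 than with hairpin 1. Its scramble libraries, at 143.2 to 164.9 CPM, lay between hairpin 2 (124.9 to 143.0) and hairpin 1 (185.7 to 235.9), nearer to hairpin 2. The PRMT1 call was lost without any 1 of scramble replicates 1 and 3, hairpin 1 replicate 3 and hairpin 2 replicates 1, 2 and 3. It was also lost in a fit of the 6 hairpin libraries alone (the largest adjusted p was 0.16). PRMT3 (-0.69 ± 0.25; adjusted p = 0.106), PRMT6 (-0.46 ± 0.22; 0.213), PRMT7 (-0.23 ± 0.19; 0.5) and PRMT9 (0.11 ± 0.21; 0.801) did not pass. PRMT3 passed with a replicate block (0.0479) and with no filter on low counts (0.0283).

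Among 21 tested partners and substrates of CARM1, 2 rose and 0 fell, against 4.52% and 5% of all genes tested. NCOA3, a p160 coactivator that recruits CARM1, was at 118, 149 and 140.0 CPM with hairpin 2, at 26.8, 54.2 and 50.7 with hairpin 1 and at 47.8 to 50.3 with scramble. Scramble lay within the range of hairpin 1. On the log2 scale, hairpin 2 minus hairpin 1 was 1.63 ± 0.23 (SE; adjusted p = 0.00136). EP300, the acetyltransferase p300, was at 101, 86.8 and 95.2 CPM against 66.8, 57.7 and 62.4 (0.60 ± 0.15; adjusted p = 0.0242). That call was lost without any 1 of the 3 hairpin 2 libraries or scramble replicates 1 and 3, in a fit of the 6 hairpin libraries alone and with no filter on low counts (largest adjusted p 0.103). The count of 2 was 6 without hairpin 1 replicate 2, 5 with upper-quartile scaling, a filter of mean 1 CPM or DESeq2, and 4 with a replicate block. It was 1 without any 1 of hairpin 2 replicates 2 and 3 and scramble replicates 1 and 3, and in a fit of the 6 hairpin libraries alone.

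DNA replication and S phase genes fell in part. Of 54 E2F and replication genes, 14 fell and 0 rose, with a median of -0.63, and 53 were below 0. Without hairpin 1 replicate 3, 3 fell, and without hairpin 2 replicates 1, 2 and 3 the counts were 7, 2 and 3, while 27 fell with no filter on low counts. The list summed to 1700 to 2020 CPM with hairpin 2, 2340 to 2950 with hairpin 1 and 2790 to 3470 with scramble. Hairpin 2 lay below both other groups, which overlapped. DUT, which clears dUTP from the nucleotide pool, was at 26.7, 22.9 and 27.3 CPM with hairpin 2, at 43.8, 53.6 and 69.6 with hairpin 1 and at 58.0 to 70.1 with scramble (-1.12 ± 0.19, SE; adjusted p = 0.00367). RFC2, a subunit of the clamp loader, was at 14.7, 12.1 and 14.4 CPM against 29.03, 22.71 and 32.12, with scramble at 22.2 to 26.0 (-1.03 ± 0.18; adjusted p = 0.0039).

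Of 63 replication-dependent histone genes, 15 fell and 0 rose, with a median of -0.72, although reads of near-identical histone copies may be misassigned. This count was 1 without hairpin 2 replicate 2, 2 without hairpin 2 replicate 1 or hairpin 1 replicate 3, 3 without hairpin 2 replicate 3, 6 without hairpin 1 replicate 2, 8 without scramble replicate 3 and 40 without scramble replicate 2. DESeq2 called 27, a fit of the 6 hairpin libraries alone 37, a fit with a replicate block 34 and one with no filter on low counts 45. The list summed to 3740 to 4300 CPM with hairpin 2, 5710 to 7580 with hairpin 1 and 4730 to 9270 with scramble, so scramble spanned hairpin 1. HIST1H2BJ, now H2BC11, a histone H2B gene, was at 60.6, 57.5 and 62.3 CPM with hairpin 2, at 102, 111 and 125 with hairpin 1 and at 292, 259 and 328 with scramble. It fell by 0.91 ± 0.16 (SE; adjusted p = 0.00376), and both hairpins lay well below scramble.

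Of 50 mitosis genes, 6 fell and 0 rose, with a median of -0.38. Without hairpin 2 replicates 1 and 2 and hairpin 1 replicate 3, 2, 1 and 3 fell, and 10 fell by DESeq2 or with a replicate block and 14 with no filter on low counts. CKS1B, a cofactor of cyclin-dependent kinases, was at 13.3, 11.7 and 13.6 CPM with hairpin 2, at 31.0, 39.1 and 52.0 with hairpin 1 and at 38.8, 66.7 and 38.8 with scramble (-1.66 ± 0.25, SE; adjusted p = 0.00178). The summed level of the list overlapped between the hairpins, at 1400 to 2340 CPM with hairpin 2 and 1980 to 2620 with hairpin 1. Of 28 genes of homologous recombination and Fanconi repair, 4 fell, and 0 fell without hairpin 1 replicate 3 or hairpin 2 replicate 2 or 3 and 10 with no filter on low counts.

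Amino acid and protein folding genes had members that fell. Of 35 ATF4 and amino acid genes, 9 fell and 2 rose (median -0.24), and 5, 4 and 5 fell without hairpin 2 replicates 1, 2 and 3. PYCR1, the last step of proline synthesis, was at 12.03, 14.45 and 15.32 CPM with hairpin 2, at 37.8, 42.0 and 57.6 with hairpin 1 and at 25.8 to 28.3 with scramble (-1.72 ± 0.19, SE; adjusted p = 0.000306). ALDH18A1, which starts the same pathway, fell by 0.85 ± 0.16 (0.006), SLC7A5, which imports large neutral amino acids, by 1.21 ± 0.21 (0.00367) and the cystathionine synthase CBS by 1.32 ± 0.16 (0.000444). The cystine transporter SLC7A11 rose by 1.35 ± 0.28 (0.0107), a call lost without hairpin 2 replicate 3 (0.059). Its scramble libraries, at 11.43 to 13.85 CPM, lay above hairpin 1 (3.784 to 9.112) and overlapped with hairpin 2 (13.6 to 21.9). Of 22 genes of protein folding in the endoplasmic reticulum, 3 fell, and 5 fell without hairpin 1 replicate 1 or 2, with a replicate block or with no filter on low counts. The 1 that rose, SEL1L, lost its call under 10 of 18 alternatives. Its scramble libraries, at 100.8 to 110.0 CPM, lay above hairpin 1 (61.17 to 100.1) and within the range of hairpin 2 (98.77 to 135.9). The chaperones PDIA4 and HYOU1 fell by 1.21 ± 0.17 (0.000927) and 0.93 ± 0.17 (0.00445).

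In energy metabolism, 6 of 40 nuclear genes of the respiratory chain fell and 0 rose. The number was 1 without hairpin 1 replicate 3 or hairpin 2 replicate 1 or 3, and 0 without hairpin 2 replicate 2. It was 3 without scramble replicate 1 or 3 or in a fit of the 6 hairpin libraries alone. The scramble mean was nearer to hairpin 1 for only 2 of the 6, and nearer to hairpin 2 for the others. CYC1, among the latter, was at 112.6 to 132.3 CPM with scramble, 103.9 to 115.9 with hairpin 2 and 158.5 to 190.9 with hairpin 1. None of the 13 mitochondrially encoded mRNAs passed, at an unadjusted p below 0.05 either, and these took 0.914% ± 0.213 of counts in hairpin 2 libraries and 0.797% ± 0.0915 in hairpin 1 libraries (SD over 3). The glucose transporter SLC2A1 was at 28.1, 30.2 and 17.0 CPM with hairpin 2 against 69.1, 50.2 and 51.9 with hairpin 1 and 51.1 to 59.8 with scramble (-1.19 ± 0.22, SE; adjusted p = 0.00585). Of 32 glycolysis and hypoxia genes, 2 fell, against 5% of all genes tested, and MXI1 rose. The number that fell ran from 1 to 7 over the alternatives, with 4 under a replicate block, 5 by DESeq2 and 7 with no filter on low counts. PGAM1, the other that fell, lost its call under 7 of 18 alternatives. HMOX1, which breaks down haem, rose by 1.81 ± 0.30 (0.00316). Of 20 NRF2, iron and redox genes, 2 rose, and 4 rose without hairpin 1 replicate 1.

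Of 19 tested genes tied to the RUNX1-RUNX1T1 leukaemia, 3 rose (RUNX1T1, IL5RA and PTK2) and 1 fell (KIT). None of the 3 passed without hairpin 1 replicate 3 or hairpin 2 replicate 1 or 2, and 6 of the 19 rose without hairpin 1 replicate 1. IL5RA rose by 1.28 ± 0.32 (adjusted p = 0.025), a call lost under 4 of 18 alternatives, and the focal adhesion kinase PTK2 by 0.65 (0.0221). For IL5RA, scramble (85.69 to 186.8 CPM) overlapped with both hairpin 2 (131.6 to 249.2) and hairpin 1 (56.87 to 98.98), with its mean nearer to hairpin 2. BCL2, the survival protein, was at 26.7, 30.1 and 28.1 CPM with hairpin 2, at 41.8, 65.4 and 59.4 with hairpin 1 and at 60.0 to 71.8 with scramble (-0.97 ± 0.19, SE; adjusted p = 0.00679). KIT, the stem cell factor receptor, was at 232, 178 and 230.0 CPM against 277, 364 and 311, with scramble at 327 to 335. It fell by 0.57 ± 0.16 (0.0442), which did not hold under 11 of 18 alternatives (largest adjusted p 0.246). RUNX1T1, the partner that the fusion places under the RUNX1 promoter, was at 128, 129 and 139 CPM against 81.2, 96.6 and 68.8, with scramble at 83.3 to 91.1. It rose by 0.68 ± 0.16 (0.0205), a call lost without any 1 of hairpin 1 replicate 3, the 3 hairpin 2 libraries and scramble replicates 1 and 3 (largest adjusted p 0.081). The gene counts do not part the fusion from RUNX1T1 itself. ROBO1 (0.44 ± 0.16; adjusted p = 0.105), POU4F1 (0.68 ± 0.27; 0.14), CD33 (-0.02 ± 0.17; 0.951) and the GM-CSF receptor chain CSF2RB (-0.34 ± 0.19; 0.288) did not pass, although ROBO1 did without hairpin 1 replicate 2 (0.0364).

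Granule genes of promyelocytes were lower in part. Of 12 tested, 4 fell and 1 rose, the proteoglycan gene SRGN, whose call was lost under 4 of 18 alternatives. For SRGN, scramble (146.1 to 152.5 CPM) lay within the range of hairpin 2 (131.8 to 153.7) and above hairpin 1 (88.09 to 96.16). Of the 4 that fell, 2 did so without hairpin 1 replicate 3 or hairpin 2 replicate 2. MS4A3, a gene of granulocyte precursors, was at 0.961, 0.788 and 0.492 CPM with hairpin 2 against 3.23, 3.08 and 2.32 with hairpin 1 and 2.73 to 6.56 with scramble (-1.94 ± 0.36, SE; adjusted p = 0.00583). MPO did not pass (-0.69 ± 0.30; adjusted p = 0.172), with groups that overlapped, but did with a replicate block (0.0184) and with no filter on low counts (0.00501). Of 11 erythroid genes tested, 1 rose and 1 fell. The glycophorin gene GYPC fell by 1.08 ± 0.18 (0.00309), while HBB did not pass (0.32 ± 0.36; 0.635). Of 10 platelet genes, 2 rose, one of them the clotting factor gene F13A1 (2.91 ± 0.44; 0.00176), and PF4 and GP9 were at 0 counts. The megakaryocyte marker ITGA2B, at 917 to 2886 counts in the 9 libraries, did not pass (-0.19 ± 0.35; 0.794).

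The same contrast was then set beside the other lines. In MV411, 12.8% ± 2.92 of CARM1 RNA was left with hairpin 2 and 26% ± 1.28 with hairpin 1 (log2 fold change -1.02 ± 0.18, SE; adjusted p = 0.00456), and 1044 genes (5.86% of 17816) were higher and 1002 (5.62%) lower. In MOLM13, 16.7% ± 4.75 and 19.3% ± 6.61 were left (-0.22 ± 0.30; adjusted p = 0.9998), and by edgeR 0 of 17732 genes passed (0%), with 335 at an unadjusted p below 0.05, 0 by limma-voom and 1 by DESeq2. The lines share no libraries. Of the 833 genes higher in SKNO1, 264 were also called higher in MV411, 31.7% of the SKNO1 list and 25.3% of the MV411 list. Of the 921 lower genes, 365 were also called lower, 39.6% and 36.4%. Genes called in opposite directions in the 2 lines numbered 5 of the 674 higher genes tested in MV411 and 7 of the 858 lower genes. The shared counts were 145 higher and 148 lower without hairpin 2 replicate 2 of SKNO1, 201 and 220 without hairpin 1 replicate 3, and 187 and 200 without hairpin 2 replicate 3, and 210 lower genes were shared without hairpin 2 replicate 1. The median log2 fold change of the SKNO1 higher genes was 0.56 in MV411 and 0.10 in MOLM13, and that of the lower genes was -0.56 and -0.16. The medians of all genes were -0.0084 in MV411 and -0.0034 in MOLM13. Across genes with a mean log2 CPM of at least 2, the fold changes of SKNO1 and MV411 had a Pearson r of 0.562 and a Spearman correlation of 0.532 over 10675 genes, which are not independent replicates. With MOLM13 these were 0.229 and 0.269 over 10654 genes.

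**Figure D3:**
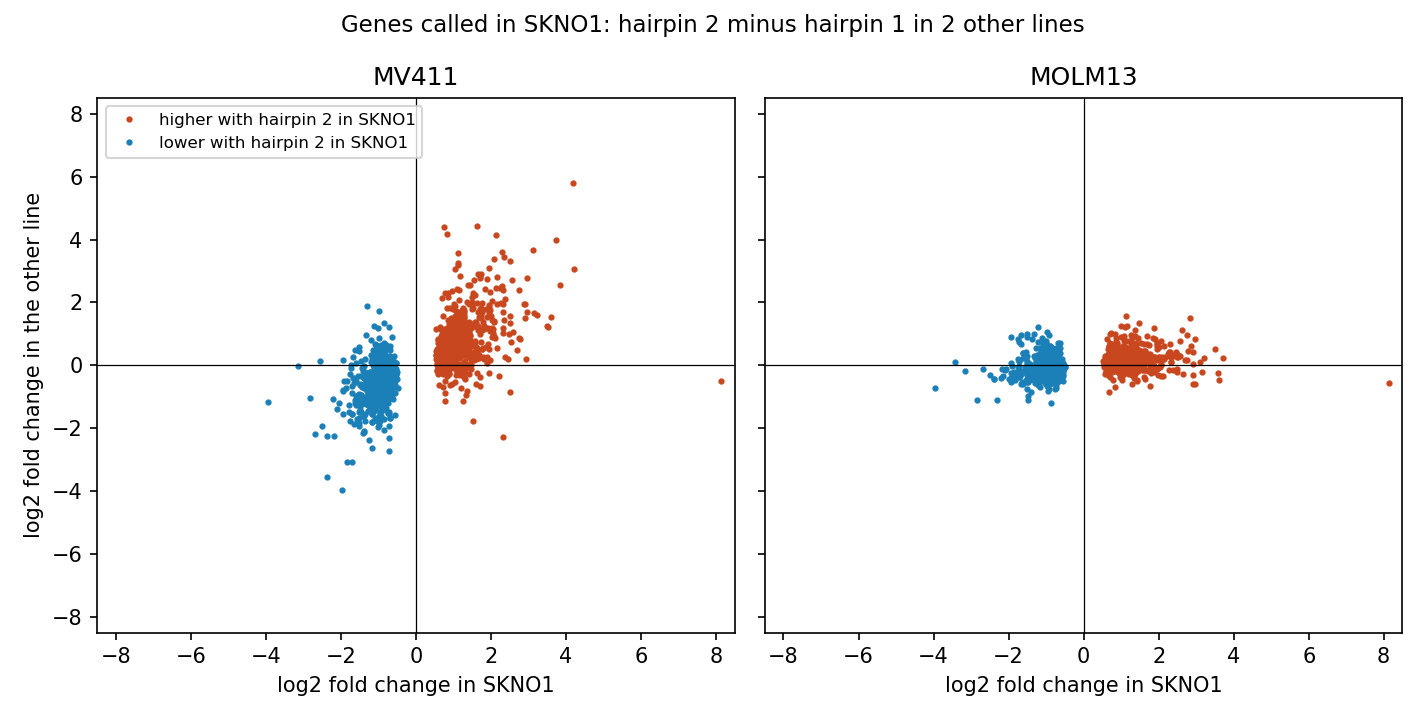
Log2 fold change of hairpin 2 over hairpin 1 for the genes called in SKNO1 (horizontal axis) against the same contrast in MV411 (left) and MOLM13 (right), 1 point per gene, orange for genes higher and blue for genes lower in SKNO1. In MV411 the orange points lie mostly above 0 and the blue ones below (medians 0.56 and -0.56), and in MOLM13 both lie close to 0 (medians 0.10 and -0.16).

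The lists were counted in the same way in MV411. Interferon genes were higher there too, in 18 of 39 (median 1.22), as were HLA class II genes in 10 of 11 (1.81) and mature myeloid genes in 14 of 32 (0.46). Ribosome biogenesis genes were lower in 19 of 43 (median -0.61). Of 25 sterol genes, 5 were higher and 0 lower in MV411 (median 0.30), and in MOLM13 the median was -0.19 with 0 past the threshold. Replication genes were lower in 4 of 54 in MV411 (median -0.03) and mitosis genes in 0 of 50 (0.36), while histones were lower in 1 of 63 (0.04). Among immediate early genes, 9 of 27 were lower and 0 higher in MV411 (median -0.34).

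Tested as an interaction over all 27 libraries, the hairpin contrast differed between SKNO1 and MV411 for 64 of 21262 genes (0.301%), 30 with a larger value in SKNO1 (0.141%) and 34 with a smaller one (0.16%). Of the 64, 28 were called in SKNO1 itself and 37 in MV411 itself. BMP6 had the clearest gain, at 2.503 ± 0.244 in SKNO1 and -0.85 ± 0.37 in MV411 (SE; difference 3.35 ± 0.39, adjusted p = 0.000136). The survival gene IER3 rose in SKNO1 and fell in MV411 (-0.94 ± 0.24; adjusted p = 0.0294), and the difference was 2.28 ± 0.30 (0.000834). MVK was the 1 of 25 sterol genes whose contrast differed between the lines past the threshold, at -1.69 ± 0.18 in SKNO1 and 0.28 ± 0.17 in MV411 (difference -1.97 ± 0.31; adjusted p = 0.00408). ARHGAP22 was at -1.31 ± 0.20 in SKNO1 and 1.89 ± 0.47 in MV411 (difference -3.21 ± 0.55; adjusted p = 0.0076). These differences held under all 16 alternatives run for the interaction. Of the interferon, HLA class II, replication, histone and ribosome biogenesis lists, 0 members differed from MV411 past the threshold, which does not show that they changed alike.

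The contrast differed between SKNO1 and MOLM13 for 35 of 21262 genes (0.165%), 20 with a larger value in SKNO1 (0.0941%) and 15 with a smaller one (0.0705%), and 34 of the 35 were called in SKNO1 itself. RGL1 was at 3.15 ± 0.27 in SKNO1 and -0.22 ± 0.45 in MOLM13 (SE; difference 3.39 ± 0.49, adjusted p = 0.00403), BMP6 differed by 2.20 ± 0.38 (0.0146) and BSCL2 by -1.91 ± 0.32 (0.011). The count of 35 was 264 without MOLM13 hairpin 2 replicate 3. It was 18 and 20 without MOLM13 hairpin 1 replicates 1 and 3, 16 and 15 without SKNO1 hairpin 1 replicates 1 and 3, and 12, 10 and 12 without SKNO1 hairpin 2 replicates 1, 2 and 3. For MV411 the count of 64 was 31, 41 and 34 without MV411 hairpin 1 replicates 1, 2 and 3, 35 and 40 without MV411 hairpin 2 replicates 1 and 2, and 32 and 35 without SKNO1 hairpin 2 replicates 2 and 3.

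**Figure D4:**
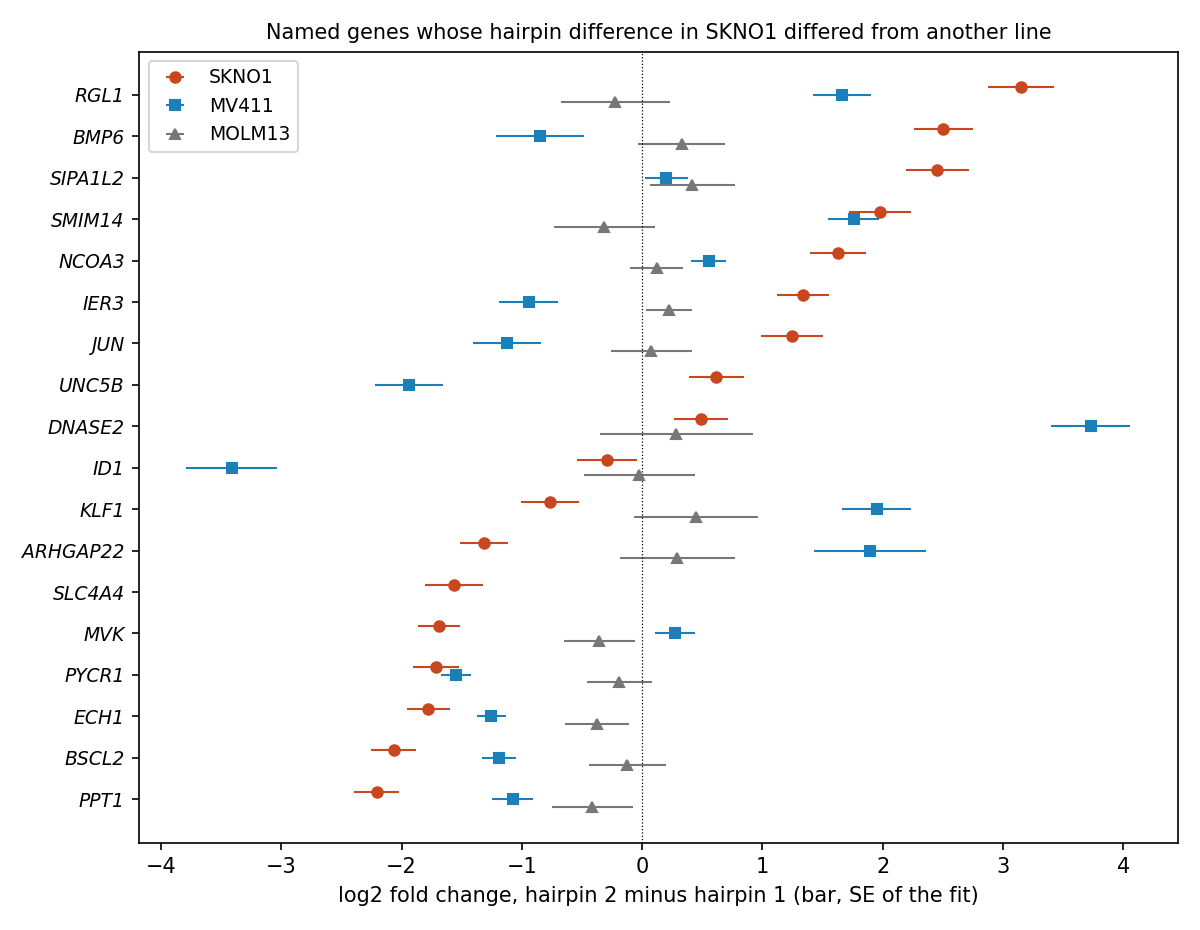
Log2 fold change of hairpin 2 over hairpin 1 in SKNO1 (circles), MV411 (squares) and MOLM13 (triangles) for the 18 named genes whose contrast in SKNO1 differed from that of another line, with bars for the SE of each line's own fit. BMP6, IER3 and JUN lie to the right of 0 in SKNO1 and to the left in MV411, and SLC4A4 lacks points in both other lines and UNC5B in MOLM13, where they were not tested.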

How the data were processed

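Total RNA was sequenced in 27 libraries of 3 cell lines, from TruSeq Total Stranded libraries after Ribo-Zero depletion, per the labels' protocols. STAR 2.5.3, RSEM and the build GRCh38 p7 are named in the submitters' processing notes. The RSEM version and the strand setting of the counting are not given in the sources used here, so a gene and its antisense neighbour cannot be told apart with certainty. The deposited values are the authors' RSEM expected counts per gene without scaling, and 30.4% of the non-zero values were not whole (tolerance 1e-09). Reads shared by near-identical copies are split among them by estimation.

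The expected counts were rounded to whole numbers. edgeR 4.0.16 (under R 4.3.3) fitted its quasi-likelihood model to the 9 SKNO1 libraries in 3 groups, after TMM scaling and removal of low genes (filterByExpr, at least 10 counts and a total of 15), with hairpin 2 minus hairpin 1 as the contrast. P-values were adjusted by Benjamini-Hochberg over all genes tested, with a threshold of 0.05, and SE are those of the fit. Interactions between lines used all 27 libraries. CPM were scaled by TMM, and log2 CPM used a prior count of 2. Alternatives were limma-voom (limma 3.58.1), DESeq2 1.42.0, other scalings and filters, a replicate block, the 6 hairpin libraries alone, abundant RNAs left out and each library left out in turn. The test was also tested on simulated data.

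Gene positions came from GENCODE 29, which matched 57388 of the 57992 gene identifiers, and promoters from RefSeq. Named genes are the arginine methyltransferases, up to 14 protein-coding genes per direction with the largest change among called genes (mean log2 CPM of at least 2, groups not overlapping), members of each list with the smallest p, the leading genes of each interaction, and markers. HPGDS was named after its value was seen. The genes, lists and rules were chosen with earlier results of these data known.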

Additional observations from a re-analysis of the deposited data

Results flagged for a closer look

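The hairpin 2 against hairpin 1 contrast differed between SKNO1 and another line, in a test of the difference itself, for 64 genes against MV411 and 35 against MOLM13. The 18 named genes among these are given here. The values below are differences of log2 fold changes, SKNO1 minus the other line, with the SE and the adjusted p of edgeR's test over 27 libraries.

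Against MV411, BMP6 differed by 3.35 ± 0.39 (adjusted p = 0.000136), IER3 by 2.28 ± 0.30 (0.000834), SIPA1L2 by 2.25 ± 0.41 (0.0123), MVK by -1.97 ± 0.31 (0.00408), ARHGAP22 by -3.21 ± 0.55 (0.0076) and KLF1, an erythroid transcription factor, by -2.72 ± 0.44 (0.00459). These 6 passed under all 16 alternatives. JUN differed by 2.37 ± 0.47 (0.018), which was lost under 6 of 16 alternatives. ID1, a target of BMP signalling, differed by 3.13 ± 0.60 (0.0155; lost under 5), the netrin receptor gene UNC5B by 2.55 ± 0.51 (0.0196; lost under 8), the lysosomal nuclease gene DNASE2 by -3.25 ± 0.71 (0.0433; lost under 10) and the bicarbonate transporter gene SLC4A4 by -3.46 ± 0.77 (0.0487; lost under 13). ID1, KLF1, UNC5B and DNASE2 did not pass in SKNO1 itself (KLF1 did by DESeq2, with abundant RNAs left out and without hairpin 1 replicate 2, and DNASE2 and UNC5B without hairpin 1 replicate 1), and SLC4A4 was too low in MV411 and in MOLM13 to be tested there alone.

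Against MOLM13, RGL1 differed by 3.39 ± 0.49 (adjusted p = 0.00403), BMP6 by 2.20 ± 0.38 (0.0146) and BSCL2 by -1.91 ± 0.32 (0.011), and these 3 passed under all 16 alternatives. NCOA3 differed by 1.53 ± 0.31 (0.0375; lost under 8), PYCR1 by -1.49 ± 0.30 (0.037; lost under 8), SIPA1L2 by 2.06 ± 0.41 (0.0375; lost under 10), PPT1 by -1.76 ± 0.37 (0.0487; lost under 10), ECH1 by -1.37 ± 0.29 (0.0487; lost under 11) and SMIM14 by 2.31 ± 0.49 (0.0491; lost under 11).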

How the results depend on the processing

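With no filter on low counts, 1391 genes were lower in SKNO1, and the contrast differed from MV411 for 395 genes and from MOLM13 for 419. Leaving out 1 library gave 332 to 1030 higher genes, 269 to 1148 lower genes, 31 to 57 differences from MV411 and 10 to 264 from MOLM13. The other settings kept the counts of higher and lower genes within 1.5 times. They were 1161 and 1341 by DESeq2, 857 and 845 by limma-voom, 685 and 843 with the 6 hairpin libraries alone, 709 and 1076 with abundant RNAs left out, and 955 and 812 with upper-quartile scaling. Higher genes outnumbered lower ones with upper-quartile scaling, by limma-voom and with a filter of mean 1 CPM (913 and 825). Scaling moved the median of all genes between -0.035 and 0.048. The CARM1 difference lay between -1.31 and -1.61 and passed under every setting run. Of 153 named genes called, other than CARM1, 135 kept their call under each setting that left out no library and 93 under every setting. No named result reversed. Deviations of same-numbered hairpin 1 and hairpin 2 libraries from their group means correlated at 0.361, 0.224 and -0.0551 for replicates 1, 2 and 3. On principal component 2 of the 9 libraries, replicate 1 lay at 21.6, 49.4 and 17.6 (scramble, hairpin 1, hairpin 2). In the same order, replicate 2 lay at -36.8, -30.8 and -6.68 and replicate 3 at 22.7, -17.4 and -19.5. Whether replicate numbers mark a shared batch is not in the labels and was not tested, and the main fit had no replicate block. With a replicate block, 1162 genes were higher and 1203 lower (CARM1 -1.43), and 61 and 28 genes differed from MV411 and MOLM13, and MPO (adjusted p = 0.0184), CSF1R (0.0359) and PRMT3 (0.0479) passed. Omission of scramble libraries was added after seeing the data.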
